A study of Mus musculus with 12 samples.

Results

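Collagens are the main structural proteins of the extracellular matrix, and each collagen molecule is a triple helix wound from chains encoded by separate genes. The chains described here are the products of 42 mouse genes, all those with a symbol of the form Col, a type number, the letter a and a chain number, with Col1a1 and Col1a2 left out. These were 42 of the 24590 genes listed in any library, and 41 of them were listed above 0 in all 12 libraries. By the assembly their chains form, 9 encode fibrillar chains, 9 encode basement membrane chains (types IV, VII, XV and XVIII), 9 encode fibril-associated chains (FACITs), 6 encode beaded filament chains (type VI), 3 encode short-chain network chains (types VIII and X), 4 encode transmembrane chains, and 2 belong to none of these.

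The RNA came from hippocampi of mice with a deletion in Shank2, which encodes a postsynaptic scaffold protein of excitatory synapses, and of their wild-type littermates. There were 2 lines, 1 with exons 6 and 7 deleted and 1 with exon 7 deleted, and each gave 3 knockout and 3 wild-type mice, 1 library per mouse. All 12 mice had a mixed C57BL/6J and C57BLl/6N background as the labels spell it, and the protocol gives males of 8 to 15 weeks for the behavioural work. The exon 6-7 line holds wild types WT778, WT809 and WT865 and knockouts KO776, KO777 and KO864, and the exon 7 line holds wild types WT628, WT993 and WT999 and knockouts KO969, KO990 and KO994. No mouse number occurs in more than 1 group, and the p-values below measure the spread between these mice. The labels do not say whether the mice of both lines were raised and sequenced together, so a difference between lines and one between cohorts cannot be told apart.

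In the brain, most fibrillar collagen is made outside the neural tissue proper, by fibroblasts of the meninges and around vessels, while type IV collagen forms the sheet of the vascular basement membrane. Type IV chains assemble into a network with laminins, nidogens and perlecan. FACITs bind to the surface of fibrils, type VI forms beaded filaments near cell surfaces, and type VIII forms hexagonal networks first described beneath endothelia. Of the transmembrane collagens, Col25a1 is made by neurons.

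All 42 genes have a complete coding model in the GENCODE annotation, and all 42 share a coding feature that their symbols do not state. A triple helix needs glycine in a short regular repeat, so its coding sequence repeats GGN (the glycine codons) every 9 bases. The sequences below are 54-base stretches from 4 members, shown because the repeat is common to all classes while its unbroken length sets the fibrillar class apart. Capitals mark the GGN codons that start each triplet, and the stretches come from the transcripts of GENCODE mouse release 21 (GRCm38, the build also called mm10).
Col5a2, fibrillar, coding exon 10 whole, chr1:45422386-45422439, minus strand: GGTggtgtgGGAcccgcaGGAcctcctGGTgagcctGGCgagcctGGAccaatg
Col11a2, fibrillar, coding exon 15 whole, chr17:34051480-34051533, plus strand: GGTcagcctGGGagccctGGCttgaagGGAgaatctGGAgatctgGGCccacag
Col8a1, short-chain network, within a coding exon of 1904 bases, chr16:57628039-57628092, minus strand: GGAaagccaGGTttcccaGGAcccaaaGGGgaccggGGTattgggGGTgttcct
Col4a1, basement membrane, within coding exon 21, chr8:11235147-11235200, minus strand: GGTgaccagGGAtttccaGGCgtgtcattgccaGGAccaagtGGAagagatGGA
The first 2 are complete exons of 54 bases that open on a glycine codon, and the Col8a1 stretch is the same kind of repeat inside 1 long exon. In the Col4a1 stretch the repeat breaks off for 6 bases and starts again.

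The length of the unbroken repeat set the fibrillar class apart from the others. The longest run was 216 to 344 GGN triplets in the 9 fibrillar genes, with a median of 338. It was 30 to 75 in the basement membrane genes (median 42), 32 to 113 in the FACITs (57), 37 to 87 in the type VI genes (45), 60 to 61 in the short-chain genes, 40 to 56 in the transmembrane genes and 23 to 28 in the remaining pair. No overlap was left between the fibrillar class and any other class. Among 17707 genes that are not collagen chains the median run was 2, and 17 of them had a run of at least 20, as all 42 collagen genes did. Exon lengths carried the same repeat: 62.5% of the 1815 internal coding exons of the 42 genes were a multiple of 9 bases, against 14.2% over all genes, and 23.4% were 54 bases long, against 0.758%. Exons of 54 bases made up 49.2% of internal coding exons in the fibrillar genes but 4.61% in the basement membrane genes. The genes are spread over 15 chromosomes, yet partner chains of type IV lie head to head. The start sites of Col4a1 and Col4a2 are 21 bases apart on opposite strands, those of Col4a3 and Col4a4 are 72 bases apart, and those of Col4a5 and Col4a6 are 1309 bases apart.

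Values are FPKM as deposited (fragment counts divided by transcript length and by library size), divided by 1 factor per library of 0.919 to 1.07. They hold no read counts, so sequencing depth is unknown and no counting interval can be given. Shank2 itself had 14.4 ± 0.576 (SD, n = 3) scaled FPKM in the exon 6-7 wild types and 6.46 ± 0.483 in the knockouts, and fell by 1.04 on the log2 scale (limma adjusted p = 0.00972). The exon 7 line had 40.8 ± 4.24 in wild types and 40.4 ± 6.29 in knockouts, where a gene-level value cannot check the loss of 1 exon. Mitochondrial genes held 6.22% to 7.39% of summed FPKM in the exon 6-7 libraries and 10.3% to 14.3% in the exon 7 libraries. One gene, ENSMUSG00000095746, is not listed by 4 libraries (WT778, KO776, WT628 and KO969) and has 218 to 435 FPKM in the other 8, so these 4 are called set A and the rest set B, with 1 wild type and 1 knockout of set A in each line. The 12 markers of hippocampal excitatory neurons were all above 0 in every library, with a summed level of 759 to 926 scaled FPKM.

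Most collagen chain genes were weakly expressed. Of the 42, 5 had a mean of at least 10 scaled FPKM over the 12 mice, 20 lay between 1 and 10, and 17 lay under 1 and were not tested. The 25 tested members had a median level of 3.19 scaled FPKM, against 11.5 over all 14322 tested genes. The member just inside the floor of 1 was Col4a5 with a mean of 1.34, and the one just outside was Col6a4 with 0.994. The plot of levels by class shows these ranges mouse by mouse.

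**Figure D1:**
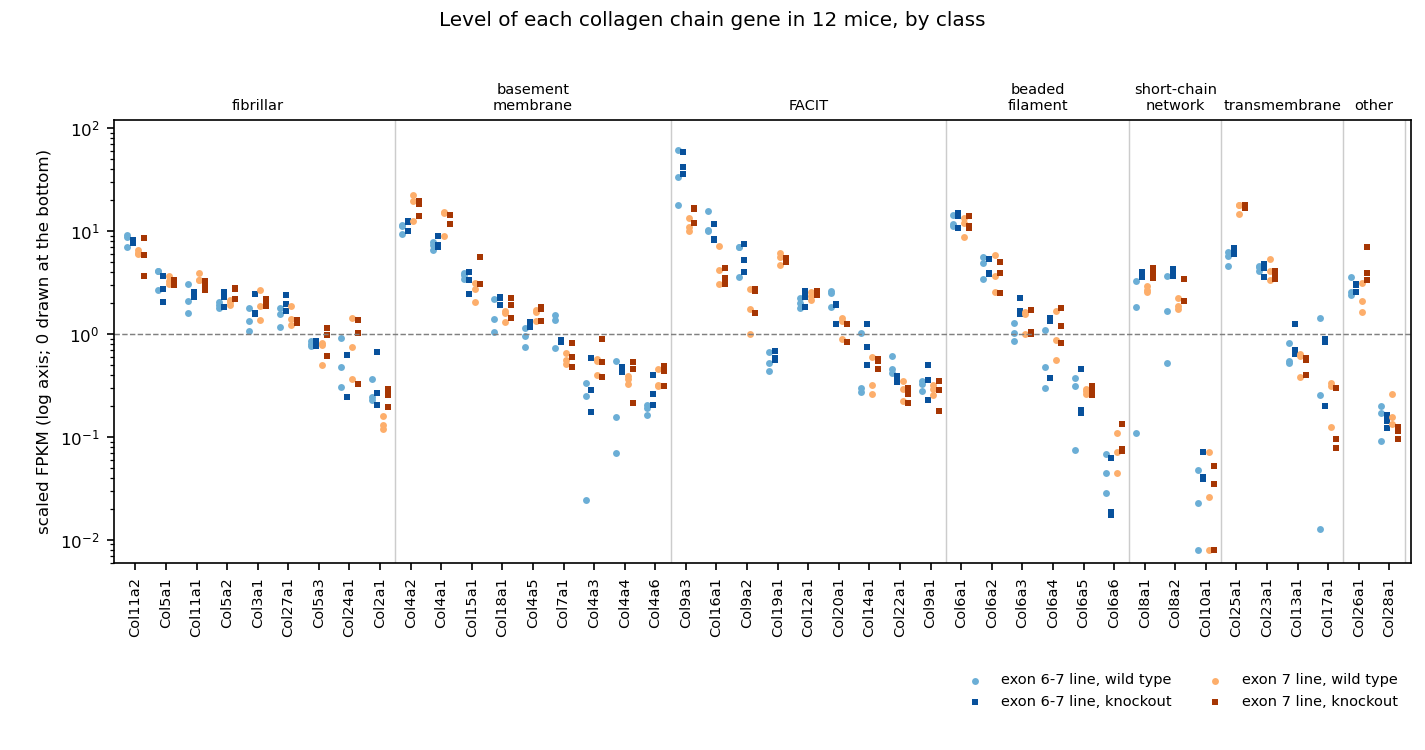
Scaled FPKM of the 42 collagen chain genes (log axis) in each of the 12 mice, ordered by class and, within a class, by mean level; each point is 1 mouse, and the dashed line marks the floor of 1 for testing. Col9a3 stands highest in the exon 6-7 line, and Col19a1, Col25a1, Col4a1 and Col4a2 sit higher in the exon 7 line.

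The 9 fibrillar chains had a summed level of 18.1 to 23.1 scaled FPKM over all 12 mice, with all 4 groups overlapping, although single chains differed between lines. The highest was Col11a2, a chain of the minor fibrils that start fibril formation. Its level was 8.84, 6.92 and 9.22 scaled FPKM in the exon 6-7 wild types, 7.76, 7.61 and 8.27 in their knockouts, 6.47, 6.06 and 6.02 in the exon 7 wild types, and 3.66, 8.6 and 5.8 in their knockouts. Col5a1, which encodes a chain of type V, the nucleator of type I fibrils, had 4.07, 4.05 and 2.69 in the exon 6-7 wild types and 2.73, 3.69 and 2.03 in the knockouts. Col5a1 had 3.29, 3.67 and 3.09 in the exon 7 wild types and 3.02, 3.34 and 3.28 in the knockouts, so its groups overlapped in both lines. Col11a1, the partner chain of Col11a2, had 2.11, 1.6 and 3.04 in the exon 6-7 wild types and 2.44, 2.28 and 2.55 in the knockouts. It had 3.31, 3.33 and 3.92 in the exon 7 wild types and 3.06, 2.7 and 3.3 in the knockouts, and the lowest of those wild types lay above the highest of the knockouts. Col3a1, the type III chain of distensible tissues such as vessel walls, averaged 1.82, and Col2a1, the cartilage collagen, averaged 0.261 and was not tested.

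Basement membrane chains were led by the type IV pair Col4a2 and Col4a1, the chains of most vascular basement membranes. Col4a2 had 9.3, 11.5 and 11.2 scaled FPKM in the exon 6-7 wild types, 12.3, 12.4 and 10.1 in the knockouts, 12.4, 19.4 and 22.6 in the exon 7 wild types and 14.1, 18.4 and 19.5 in the knockouts. Col4a1 followed it with 6.47, 7.74 and 7.26, then 7.24, 8.89 and 7.07, then 8.85, 15.4 and 15, then 11.6, 14.4 and 14.2 in the same order of groups. Within the exon 7 wild types, mouse WT628 was the low one for both genes. Col15a1, whose chain lies between the basement membrane and the fibrils beneath it, had 3.44, 3.91 and 3.71 in the exon 6-7 wild types, 3.96, 3.36 and 2.46 in their knockouts, 2.73, 3.14 and 2.04 in the exon 7 wild types, and 3.09, 3.04 and 5.65 in their knockouts. The chains of the kidney and ear network, Col4a3 and Col4a4, averaged 0.413 and 0.367 and were not tested.

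FACITs held the member with the highest level of all, Col9a3, a chain of the type IX collagen known from cartilage. Col9a3 had 33.6, 61.2 and 17.8 scaled FPKM in the exon 6-7 wild types and 36.2, 58 and 42.1 in the knockouts. It had 10.1, 13.5 and 10.9 in the exon 7 wild types and 11.9, 16.9 and 16.3 in the knockouts, below every mouse of the other line. Col9a3 alone made up 24.5% ± 8.99 (SD, n = 3) of the summed level of the 42 genes in the exon 6-7 wild types, and 8.58% ± 0.644 in the exon 7 wild types. Its partner chain Col9a2 had 7.03, 7.01 and 3.58 in the exon 6-7 wild types, 5.18, 7.54 and 4 in the knockouts, 1.74, 2.76 and 1 in the exon 7 wild types and 1.58, 2.6 and 2.74 in the knockouts. The third chain of type IX, Col9a1, averaged 0.309 scaled FPKM over the 12 mice, far under its partners. Col16a1, a FACIT of many connective tissues, had 10.1, 15.7 and 10.2 in the exon 6-7 wild types, 8.31, 11.8 and 8.09 in their knockouts, 3.07, 7.16 and 4.15 in the exon 7 wild types, and 4.41, 3.53 and 3.09 in their knockouts. As for Col9a3 and Col9a2, the 2 lines did not overlap for Col16a1.

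Type VI was carried by Col6a1, with 11.8, 14.4 and 11.2 scaled FPKM in the exon 6-7 wild types, 14.1, 15.1 and 10.7 in their knockouts, 8.8, 13.3 and 12.1 in the exon 7 wild types and 10.6, 11.1 and 13.9 in their knockouts. Col6a2 had 3.45, 5.65 and 4.91, then 3.94, 5.33 and 3.81, then 2.57, 5.82 and 3.68, then 2.49, 3.92 and 4.97 in the same order. All groups of these chains overlapped. Among transmembrane collagens, Col25a1, the precursor of a component of amyloid plaques made by neurons, had 6.2, 4.59 and 5.74 in the exon 6-7 wild types and 6.86, 6.56 and 5.92 in the knockouts, but 14.6, 18.1 and 17.8 in the exon 7 wild types and 17.9, 17.4 and 16.8 in the knockouts. The lines did not overlap for Col25a1. Col23a1, another transmembrane chain, had 4.44, 4.6 and 4.07, then 4.41, 4.81 and 3.6, then 3.31, 5.32 and 4.13, then 3.71, 3.39 and 4.09 in the same order of groups, all of which overlapped.

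The first question of the design was whether a Shank2 deletion changed these genes within each line. No collagen chain gene passed the test in either knockout comparison. In the exon 6-7 line limma called 0 of the 25 tested members at an adjusted p under 0.05, where 0.0209% of the 14322 tested genes were called, and in the exon 7 line it called 0 of 25, where 0% of all genes were called. The limma test on unadjusted p under 0.05 gave 3 of 25 in the exon 6-7 line (Col8a1, Col8a2 and Col6a3), against 4.09% of all tested genes, and 1 of 25 in the exon 7 line (Col26a1), against 3.5%. The 25 members had a median of 0.10 on the log2 scale in the exon 6-7 comparison and 0.04 in the exon 7 comparison, where all tested genes had medians of 0.00 and -0.01. For 22 of the 25 in the exon 6-7 line and 21 of the 25 in the exon 7 line, the 95% interval lay within 1 log2 unit of 0. The exceptions were Col8a1, Col8a2 and Col9a3 in both lines and Col26a1 in the exon 7 line. Limma pooled the spread of a gene over both lines, so each gene had the same SE in both knockout comparisons. A mouse that stands apart thus widens the intervals of both lines. All fold changes here are on the log2(scaled FPKM + 1) scale, which understates the change of weakly expressed genes, and with 3 mice against 3 an exact permutation test cannot go below p = 0.1. In bulk tissue, fewer cells of a type and less RNA per cell cannot be told apart.

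**Figure D2:**
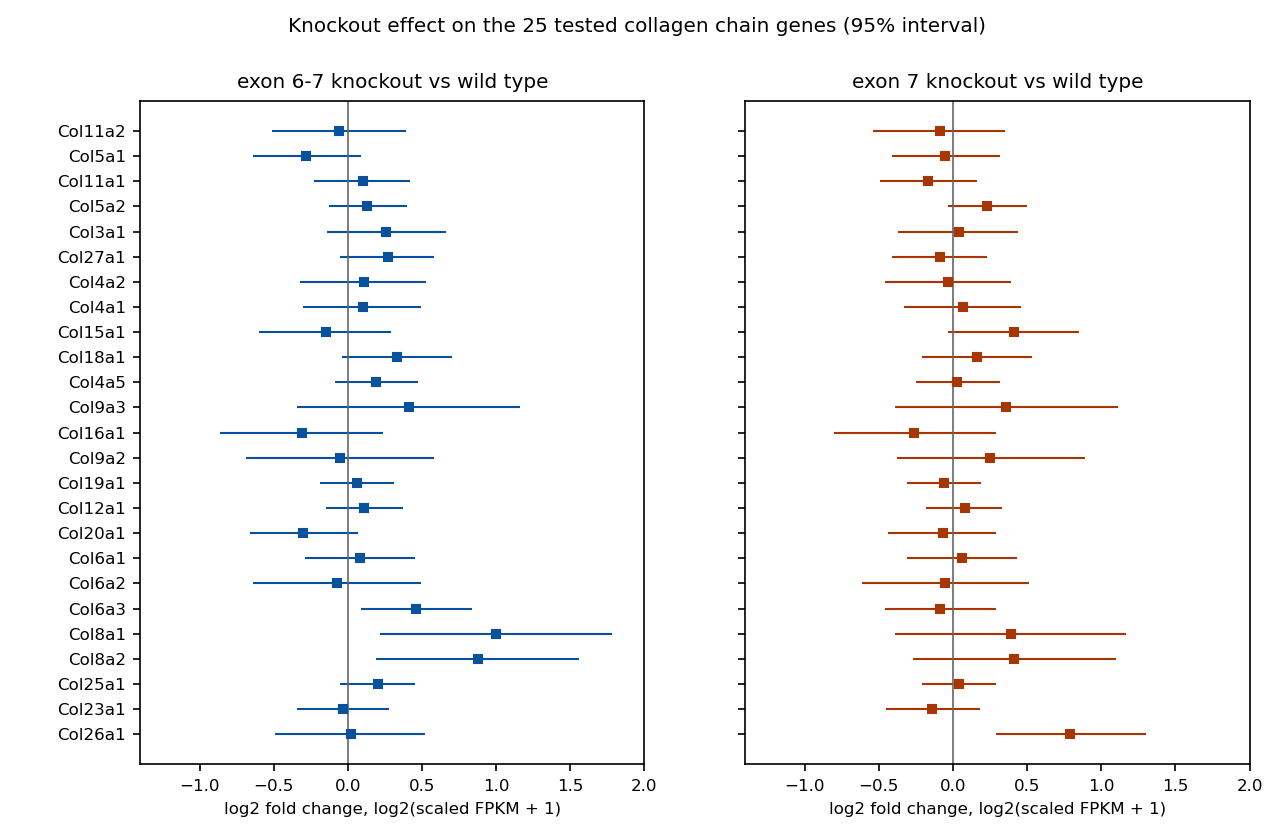
Log2 fold change of knockout over wild type for the 25 tested collagen chain genes, ordered by class. The exon 6-7 line is on the left and the exon 7 line on the right, with 3 mice a group. Squares are limma estimates and bars 95% intervals. The spread of a gene was pooled over both lines, so its bars are equally long in both panels. The 2 type VIII genes in the exon 6-7 line and Col26a1 in the exon 7 line lie farthest from 0, and none passes the adjusted threshold.

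By class, the median log2 fold change of the 6 tested fibrillar genes was 0.12 for the exon 6-7 knockouts and -0.07 for the exon 7 knockouts, and the 5 tested basement membrane genes had 0.11 and 0.07. The 6 tested FACITs had 0.00 and 0.01, the 3 type VI genes 0.08 and -0.05, and the 2 transmembrane genes 0.08 and -0.05, while the other class is Col26a1 alone. The 2 type VIII genes had the highest medians of these 6 classes, 0.94 and 0.40. No class held a called gene in either line.

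The type VIII chains Col8a1 and Col8a2, which can form the same network, had the largest differences of the exon 6-7 comparison. Col8a1 had 1.84, 3.26 and 0.109 scaled FPKM in the wild types and 3.6, 3.97 and 3.71 in the knockouts. All 3 knockouts lay above all 3 wild types, and WT865 stood far under the rest. The log2 fold change of Col8a1 was 1.0 (SE 0.356, 95% interval 0.22 to 1.78, limma adjusted p = 1, exact permutation p = 0.1). Col8a2 had 1.66, 3.67 and 0.518 in the wild types and 3.67, 3.71 and 4.31 in the knockouts, again without overlap, and differed by 0.88 on the log2 scale (SE 0.312, limma adjusted p = 1). The separation of the Col8a2 groups was slight, since WT809 and KO776 both round to 3.67. Mouse WT865 carried much of both fold changes: without it the log2 fold change was 0.45 for Col8a1 and 0.47 for Col8a2, and the groups still did not overlap. Among the wild types left, WT778 was the lower in both genes, at 1.84 and 1.66. Within set A the differences were 0.69 and 0.81, and within set B they were 1.15 and 0.91.

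Among the exon 7 mice Col8a1 had 2.68, 2.94 and 2.57 in wild types and 3.83, 4.34 and 3.46 in knockouts, without overlap, and differed by 0.39 on the log2 scale (SE 0.356, limma adjusted p = 1). Col8a2 had 1.75, 2.24 and 1.85 in wild types and 2.11, 3.4 and 3.39 in knockouts, a difference of 0.41 on the log2 scale (SE 0.312, limma adjusted p = 1), with 1 knockout inside the wild-type range. The mean effect over both lines was 0.69 for Col8a1 (SE 0.252, unadjusted p = 0.0183 and adjusted p = 1 by limma) and 0.65 for Col8a2 (SE 0.22, unadjusted p = 0.0133 and adjusted p = 1 by limma). Over both lines limma called 0 of 25 members, where 0.0209% of all tested genes were called, and 3 of 25 had an unadjusted p under 0.05 (these and Col26a1), against 3.58%. The lower members by the smallest p were Col16a1 at -0.28 (SE 0.177) and Col20a1 at -0.18 (SE 0.118), both at a limma adjusted p of 1.

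Mouse WT865 also stood apart in genes of the choroid plexus, the epithelium that makes cerebrospinal fluid and that can come along when a hippocampus is dissected. The summed level of 15 choroid plexus markers was 54.1 scaled FPKM in WT865, against 4022 to 8706 in the other 5 exon 6-7 mice. Without Ttr, the most abundant of them, the sum was 18.5 in WT865, 88.5 in WT778 and 196 to 214 in the rest of the line. Of the 18.5 in WT865, Slc5a5 held 9.17. This marker had 8.25 to 10.9 in the other 5 mice, so it was not low in WT865. None of the 15 markers was at 0 in any library. WT778 was thus the next lowest of the line in these markers, as it was in Col8a1 (1.84) and Col8a2 (1.66). Of the 25 tested collagen genes, 2 (Col8a1 and Col8a2) had their lowest level of the line in WT865 by more than 2-fold, where 0.726% of tested genes did. So did 3 of the 17 members under the floor, Col4a3, Col4a4 and Col17a1, but that share covers tested genes only. Other members under the floor were lowest by more than 2-fold elsewhere in the line, Col6a5 in WT778 and Col10a1 in WT809. Col4a3 had 0.0241 in mouse WT865 and 0.174 to 0.587 in the other 5, and Col17a1, a transmembrane chain of epithelial attachment, had 0.0127 against 0.199 to 1.43. In the 6 exon 7 mice the markers without Ttr summed to 120 to 159, within the range of those 5 exon 6-7 mice, and Col8a1 was 2.57 to 4.34 there and 1.84 to 3.97 in those 5. With Ttr, which makes up nearly the whole sum, the exon 7 mice had 1479 to 2367. For the exon 7 over the exon 6-7 wild types, 13 of the 15 markers had a log2 fold change above 0, with a median of 0.72. The low WT865 is among those exon 6-7 wild types. The part of tissue composition in the type VIII difference was not tested.

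**Figure D3:**
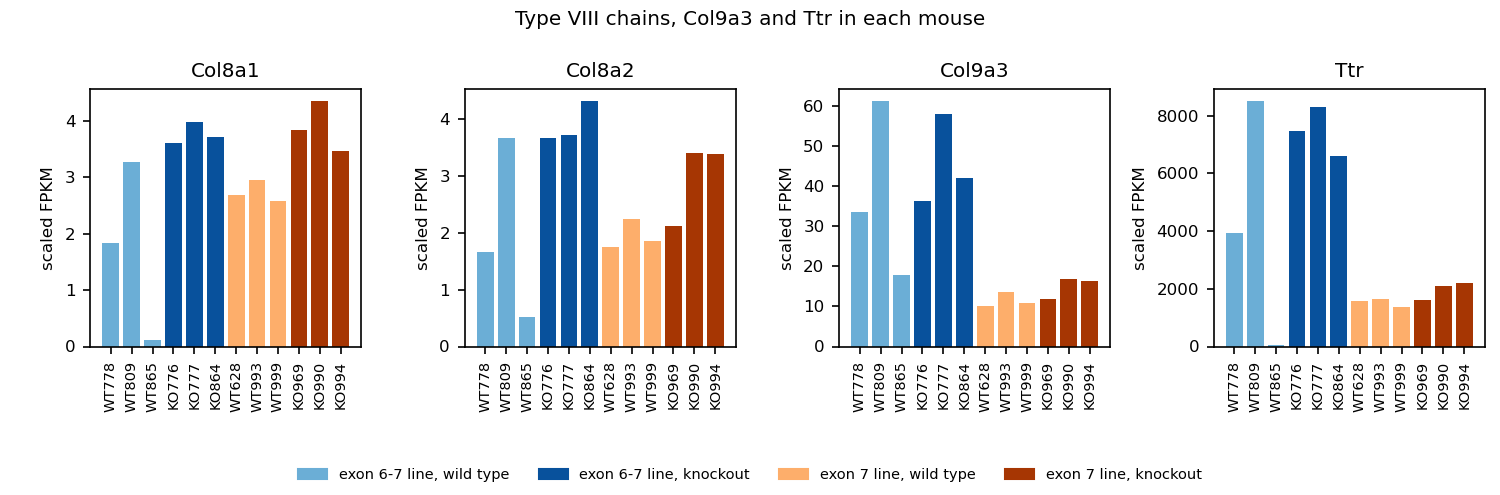
Scaled FPKM of Col8a1, Col8a2, Col9a3 and the choroid plexus gene Ttr in each of the 12 mice; each bar is 1 mouse, coloured by group, and every axis starts at 0. Mouse WT865 is the lowest of the exon 6-7 line in all 4 panels, and the exon 7 mice are low in Ttr and Col9a3 but not in Col8a1.

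Because Col8a1 and Col8a2 had their lowest level in the same mouse and lie on different chromosomes, the 250 bases before their start sites are shown, from the RefSeq promoter table on GRCm38.p6. Capitals mark GC boxes (GGGCGG on either strand, so also CCGCCC), the letters bound by Sp family factors.
Col8a1, chr16:57754738-57754987, minus strand: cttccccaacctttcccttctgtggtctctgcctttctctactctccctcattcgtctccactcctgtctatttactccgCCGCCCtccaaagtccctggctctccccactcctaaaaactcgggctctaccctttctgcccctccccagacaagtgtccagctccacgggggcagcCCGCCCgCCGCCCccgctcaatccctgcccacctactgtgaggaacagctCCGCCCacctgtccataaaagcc
Col8a2, chr4:126286544-126286793, plus strand: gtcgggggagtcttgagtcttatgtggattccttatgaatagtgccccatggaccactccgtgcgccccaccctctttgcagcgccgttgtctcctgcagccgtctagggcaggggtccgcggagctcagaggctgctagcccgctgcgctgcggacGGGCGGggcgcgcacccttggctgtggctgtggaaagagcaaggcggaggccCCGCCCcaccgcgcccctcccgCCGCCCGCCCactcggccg
Each window held 4 GC boxes, counting overlapping matches in the last run of capitals of Col8a2, and neither held a TATA box (TATAAA) or a CCAAT box (CCAAT), searched on both strands. The table had 37 promoter windows for 34 of the 42 collagen genes. A GC box was present in 21 of the 37, or 56.8%, against 32.7% of all 32851 RefSeq windows of the same length. CCAAT was present in 32.4% against 33.8%, and TATAAA in 13.5% against 12.4%. A match is a run of letters in these windows, not a measured binding site, and a link between these letters and the RNA levels was not tested.

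Members of other classes had smaller differences in the exon 6-7 comparison. Col6a3, the third chain of type VI, had 1.01, 1.28 and 0.856 scaled FPKM in the wild types and 1.57, 2.25 and 1.67 in the knockouts, without overlap, and differed by 0.46 on the log2 scale (SE 0.17, unadjusted p = 0.019 and adjusted p = 1 by limma). The exon 7 groups of Col6a3 overlapped, with 0.997, 1.62 and 1.55 in wild types and 1.72, 0.998 and 1.05 in knockouts. Col4a5, the X-linked type IV chain, had 0.751, 1.15 and 0.948 in the exon 6-7 wild types and 1.19, 1.18 and 1.3 in the knockouts, a difference of 0.19 on the log2 scale (SE 0.128, limma adjusted p = 1). In all, 4 of the 25 tested members (Col4a5, Col6a3, Col8a1 and Col8a2) were higher in every exon 6-7 knockout than in every wild type, where 4.98% of tested genes were, and 0 were lower in every knockout, where 6.28% were. For Col8a2 the order of WT809 and KO776 rests on digits beyond the printed 3.67. The lower members by the smallest p were Col20a1, a FACIT, with 1.83, 2.48 and 2.6 in wild types and 1.89, 1.96 and 1.24 in knockouts (log2 fold change -0.30, SE 0.166, limma adjusted p = 1), and Col5a1 (-0.28, SE 0.167, limma adjusted p = 1). Both groups of values overlapped.

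The largest difference in the exon 7 line was that of Col26a1, an unclassified collagen with short triple helices. Its level was 1.65, 3.11 and 2.07 scaled FPKM in the wild types and 3.35, 3.94 and 7.06 in the knockouts, and KO994 was the high one. The groups did not overlap, and the log2 fold change was 0.79 (SE 0.23, 95% interval 0.29 to 1.30, unadjusted p = 0.00534 and adjusted p = 1 by limma), or 0.52 without KO994. In the exon 6-7 line Col26a1 had 2.37, 3.6 and 2.56 in wild types and 2.53, 2.97 and 3.06 in knockouts, for a log2 fold change of 0.02. Col15a1 had the next smallest p among higher members of the exon 7 line, at 0.41 on the log2 scale (SE 0.202, limma adjusted p = 1), or 0.17 without KO994, which had 5.65 scaled FPKM. Of the 25 tested members, Col5a2, Col8a1 and Col26a1 were higher in every exon 7 knockout than in every wild type, where 3.25% of tested genes were, and Col11a1 was lower in every knockout, where 3.74% were. Col11a1 had a log2 fold change of -0.17 (SE 0.149) and Col16a1 one of -0.26 (SE 0.25), both with a limma adjusted p of 1.

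The knockout effect was then compared between lines. Limma called 0 of the 25 members for the difference of the effects, where 0.014% of all tested genes were called, and 2 of 25 had an unadjusted p under 0.05, against 3.99%. These were Col26a1, with a difference of -0.78 on the log2 scale for the exon 6-7 minus the exon 7 effect (SE 0.326, unadjusted p = 0.0357 and adjusted p = 1 by limma), and Col6a3, with 0.55 (SE 0.24, unadjusted p = 0.0418 and adjusted p = 1 by limma). For Col8a1 the difference was 0.62, with a 95% interval of -0.49 to 1.72, and for Col8a2 it was 0.47, with an interval of -0.50 to 1.43. The next members by p in each direction were Col27a1 and Col15a1. Col27a1, a fibrillar chain, had 1.17, 1.77 and 1.56 scaled FPKM in the exon 6-7 wild types, 1.66, 2.39 and 1.97 in their knockouts, 1.39, 1.87 and 1.23 in the exon 7 wild types and 1.36, 1.28 and 1.36 in their knockouts, and both pairs of groups overlapped. The difference of effects was 0.36 (SE 0.204) for Col27a1 and -0.56 (SE 0.286) for Col15a1, both at a limma adjusted p of 1.

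Chains that assemble together can be set against each other within a mouse, where the scaling of the library cancels. The ratio of Col4a1 to Col4a2 was the tightest of 4 pairs, between 0.589 and 0.822 in all 12 mice. The ratio of Col6a1 to Col6a2 was between 2.28 and 4.25, and that of Col9a2 to Col9a3 between 0.0923 and 0.209. The ratio of Col5a1 to Col5a2, the chains of type V, differed most between genotypes. On the log2 scale it was 1.08, 0.98 and 0.59 in the exon 6-7 wild types and 0.26, 0.53 and 0.17 in the knockouts, without overlap. Among the exon 7 mice it was 0.79, 0.85 and 0.54 in wild types and 0.15, 0.61 and 0.24 in knockouts, where 1 knockout fell within the wild types. The knockout minus wild-type difference was -0.57 and -0.39, with a mean of -0.48 over both lines and an exact two-sided permutation p of 0.015 over the 400 relabellings within lines. Adjusted over the 4 pairs by Benjamini-Hochberg the p was 0.06, so the difference did not pass the threshold. It was negative within set A (-0.83 and -0.64) and within set B (-0.44 and -0.27) of both lines. The other 3 pairs had exact permutation p of 0.365 to 0.455, with mean differences of 0.05 for type IV, 0.15 for type VI and -0.23 for type IX.

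**Figure D4:**
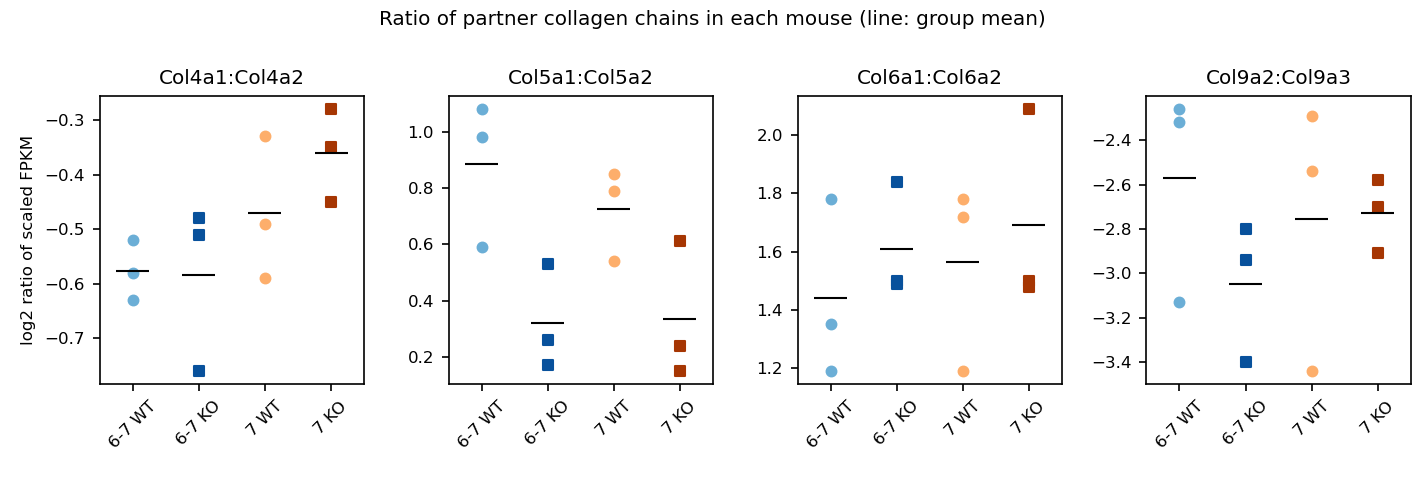
Log2 ratio of scaled FPKM of 4 pairs of partner chains in each of the 12 mice, by line and genotype (6-7 and 7 name the deleted exons); points are mice and black lines group means, and each panel has its own axis. For Col5a1 to Col5a2 the wild types lie at 0.54 to 1.08 and the knockouts at 0.15 to 0.61, while the Col4a1 to Col4a2 ratio stays between -0.76 and -0.28 in every mouse.

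The wild types of both lines share a genotype at Shank2, so their difference is one of line or cohort. Of the 25 tested members, 10 passed limma's adjusted threshold, which is 40% where 66.4% of all tested genes were called. Higher in the exon 7 wild types were 6 members (33.7% of all tested genes), and lower were 4 (32.7%). By class these were 5 of 6 FACITs, 3 of 5 basement membrane genes, 1 of 6 fibrillar genes and 1 of 2 transmembrane genes, with 0 of 3 type VI, 0 of 2 type VIII and 0 of 1 other genes.

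The FACIT Col19a1, made in the brain by subsets of interneurons, rose most. Its level was 0.524, 0.434 and 0.674 scaled FPKM in the exon 6-7 wild types and 4.72, 6.14 and 5.53 in the exon 7 wild types, and the knockouts lay with their lines at 0.581, 0.554 and 0.68 and at 5.05, 5.41 and 5.09. The means differed 10-fold, and the log2 fold change was 2.06 (SE 0.114, limma adjusted p = 8.45e-08). All 6 exon 6-7 mice lay under 1, so Col19a1 reached the floor for testing only through the exon 7 line where it was high, and its test describes that difference without supporting it. Col25a1 was 3.06-fold higher in the exon 7 wild types (log2 fold change 1.46, SE 0.113, limma adjusted p = 7.1e-07). Among the basement membrane chains Col4a1 rose by 0.76 (SE 0.18, limma adjusted p = 0.00299), Col4a2 by 0.68 (SE 0.193, limma adjusted p = 0.00859) and Col4a5 by 0.40 (SE 0.128, limma adjusted p = 0.0168) on the log2 scale. The fibrillar chain Col11a1 rose by 0.50 (SE 0.149, limma adjusted p = 0.0116), while its partner Col11a2 had -0.37 (SE 0.205, limma adjusted p = 0.133).

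All 4 members that were lower in the exon 7 wild types were FACITs. Col9a3 was 3.27-fold lower (log2 fold change -1.47, SE 0.342, limma adjusted p = 0.00259), and its partner Col9a2 was 3.2-fold lower (-1.28, SE 0.29, limma adjusted p = 0.00215). Col16a1 was 2.50-fold lower (-1.20, SE 0.25, limma adjusted p = 0.00122). Col20a1 was 1.89-fold lower, with 0.886, 1.33 and 1.44 scaled FPKM in the exon 7 wild types and 1.83, 2.48 and 2.6 in the exon 6-7 wild types (-0.57, SE 0.166, limma adjusted p = 0.00952). The exon 7 knockouts had 0.829, 1.24 and 1.26. For each of these 10 members the 2 wild-type groups did not overlap. With Col11a2 and Col15a1, which did not pass, 6 members were higher in every exon 7 wild type (35.4% of all tested genes) and 6 were lower (34.3%).

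Transcript length moved with this comparison over all genes. Across 14163 genes with a known length, which are not independent replicates, the log2 fold change between wild types was greater for genes with a longer longest transcript, with a Spearman rho of 0.66. The rho was 0.35 for the exon 6-7 knockout comparison and -0.18 for the exon 7 one. Collagen genes are long: the tested members had a median of 5595 bases against 3278 over all tested genes, and 22 of the 25 were longer than that median. With smooth trends of length and GC content removed from each library, 16 of the 25 passed (64%, where 47.1% of all genes did), 2 of them higher (23.7%) and 14 lower (23.4%). Only 6 were called in the same direction in both fits: Col19a1 (1.35), Col25a1 (0.48), Col9a2 (-0.70), Col9a3 (-1.05), Col16a1 (-1.33) and Col20a1 (-0.84 with trends removed). Col4a1 (0.21) and Col4a2 (0.26) no longer passed, and Col11a1 (-0.58) and Col4a5 (-0.35) reversed.

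**Figure D5:**
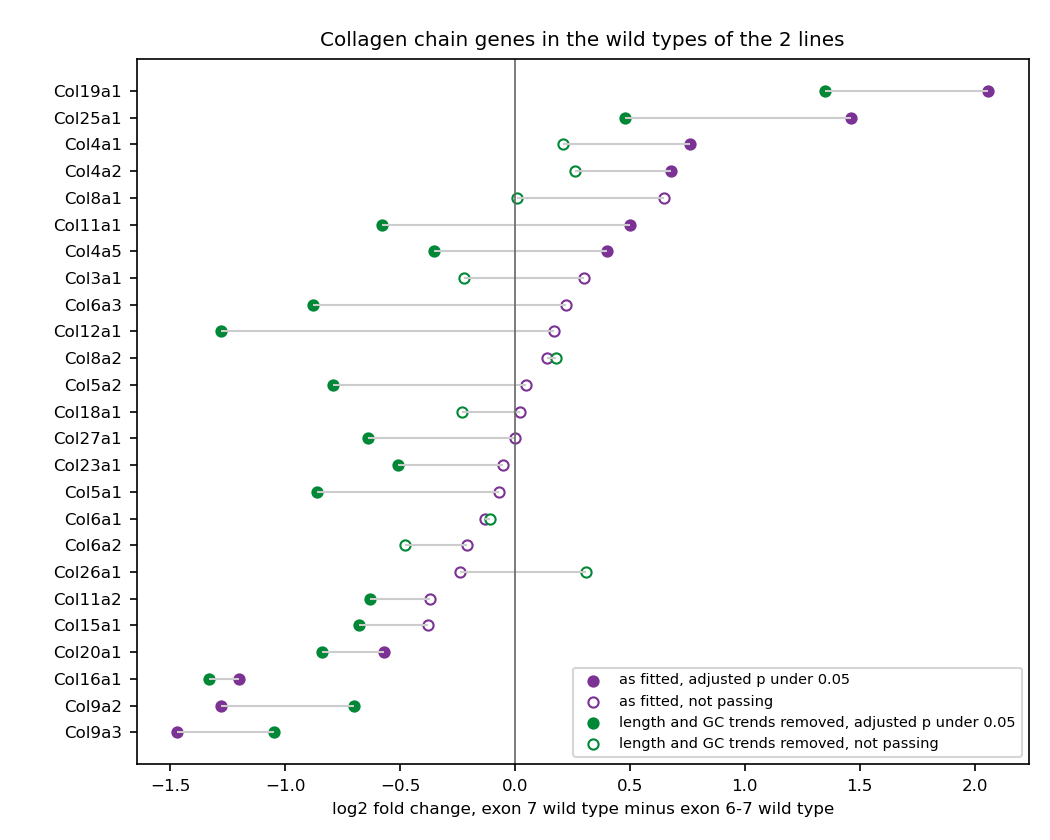
Log2 fold change of the 25 tested collagen chain genes between the wild types of the exon 7 line and of the exon 6-7 line, as fitted (purple) and with length and GC trends removed (green); filled points passed limma's adjusted p under 0.05, and grey lines join the 2 values of a gene. Most members shift to the left when the trends are removed, Col19a1 and Col25a1 stay right of 0, and the 4 lower FACITs stay left of 0.

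The genes that make, cross-link, bind and degrade collagen gave the same contrast between comparisons. Of 85 such genes on 6 lists, 67 were tested, and limma called 0 in the exon 6-7 comparison, 0 in the exon 7 comparison, 0 for the difference and 0 for the mean, with 6, 3, 4 and 5 of 67 at an unadjusted p under 0.05, against 4.09%, 3.5%, 3.99% and 3.58% of all tested genes. Between the wild types of the lines 34 of the 67 were called, which is 50.7% where 66.4% of all tested genes were, 23 higher and 11 lower in the exon 7 line. By list these were 6 higher and 6 lower of 24 biosynthesis and processing genes, 1 higher of 3 cross-linking genes, 5 higher and 1 lower of 8 receptors, 3 higher and 2 lower of 9 breakdown genes, 4 higher and 1 lower of 12 basement membrane partners, and 4 higher and 1 lower of 11 fibril partners. These counts hold with the length and GC trends left in. With the trends removed, Lama2 (-0.56), Vcan (-0.58), Ddr2 (-0.46), Lair1 (-0.47) and Fbn1 (-0.60) went from called higher to called lower. No gene went from called lower to called higher. Of the 5 higher receptors only Adgrg1 (0.53) still passed as higher. Others lost their call, among them Fn1 (0.45), Timp3 (0.25) and the lower gene Crtap (-0.11).

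The largest of these by p was Pxdn, peroxidasin, the enzyme that makes the sulfilimine cross-link of type IV collagen. Pxdn had 10.5 ± 0.581 (SD, n = 3) scaled FPKM in the exon 6-7 wild types and 38.3 ± 1.99 in the exon 7 wild types, and rose by 1.78 on the log2 scale (limma adjusted p = 5.55e-08). Ppib, a prolyl isomerase of collagen folding, fell by 1.29 (limma adjusted p = 1.02e-06), from 210 ± 22.5 to 85.6 ± 11.4. The membrane protease Mmp16 rose by 1.64, the procollagen protease Adamts3 by 0.80, the integrin chain Itga1 by 1.24 and nidogen Nid1 by 1.16 (limma adjusted p = 1.93e-06, 1.88e-05, 2.03e-05 and 2.19e-05). Every exon 6-7 mouse had under 1 scaled FPKM of Itga1, with group means of 0.394 and 0.391. Itga1 thus reached the floor for testing only through the exon 7 line, and its test describes that difference without supporting it. It is counted among the called receptors above. With length and GC trends removed these 6 log2 fold changes were 1.06 for Pxdn, -1.30 for Ppib, 0.92 for Mmp16, 0.65 for Adamts3, -0.30 for Itga1 and 0.45 for Nid1, and Itga1 no longer passed (limma adjusted p = 0.16). The genes with the highest levels on the lists included Sparc, a collagen-binding glycoprotein, at a mean of 179 scaled FPKM, the protease inhibitor Timp2 at 102, the prolyl hydroxylase subunit P4hb at 59.8, the heparan sulfate proteoglycan Agrn at 49.1 and the collagen receptor Ddr1 at 31.1.

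Markers of cells that could carry collagen RNA are given beside these results. In the exon 6-7 knockout comparison 14 of 15 choroid plexus markers were above 0 with a median of 1.41 on the log2 scale, and 11 of 12 tested meningeal and fibroblast markers were above 0 with a median of 0.20. The latter list shares Dcn, Lum and Ogn with the fibril partners, and its sum was 69 to 76.8 scaled FPKM in the wild types and 87.7 to 94.3 in the knockouts, without overlap. The medians were 0.10 for 11 pericyte and smooth muscle markers, 0.05 for 12 endothelial markers, 0.15 for 5 blood markers, -0.02 for 8 astrocyte markers, -0.39 for 9 oligodendrocyte markers, -0.07 for 10 interneuron markers, 0.00 for 12 excitatory neuron markers and 0.09 for 8 tested markers of neighbouring tissue. In the exon 7 comparison the medians were 0.19 for choroid plexus, 0.12 for meningeal and 0.73 for blood markers, and between -0.07 and 0.02 for the other lists. Limma called 0 markers of any list in either knockout comparison. Between the wild types, where 66.4% of all tested genes were called, it called 5 of 15 choroid plexus, 3 of 12 meningeal, 9 of 12 endothelial, 8 of 11 pericyte, 4 of 5 blood, 7 of 8 astrocyte, 7 of 9 oligodendrocyte, 8 of 10 interneuron, 10 of 12 excitatory neuron and 7 of 8 neighbouring tissue markers. Of the vessel lists, the endothelial one had a median of 0.49, with 7 of 12 called higher and 2 lower, and the pericyte one had 0.28, with 4 higher and 4 lower. Of these 4 higher pericyte markers, Abcc9 was under 1 scaled FPKM in every exon 6-7 mouse, with group means of 0.39 and 0.559. It reached the floor for testing only through the exon 7 line, so its test describes that difference without supporting it. Single vessel markers differed from their list: Cldn5 had -0.60 (limma adjusted p = 0.0103), and Pdgfrb had 0.38 without passing (limma adjusted p = 0.0568). Their part in the collagen differences was not tested.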

How the data were processed

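The members and gene lists were chosen with earlier results of these data known. Poly(A) RNA libraries of hippocampi were size-selected on a gel, per the labels' protocols, and CASAVA, GSNAP, Cufflinks and mm10 are named in the submitters' processing notes. The authors deposited 1 FPKM value per Ensembl release 74 gene and library, per the file headers. The sources used here do not give strand use, the treatment of reads that map to several genes or read totals, so genes that overlap or share sequence cannot be separated further.

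Symbols came from GENCODE mouse release 21, which matched 24065 of 24590 identifiers. FPKM was scaled by median of ratios over 12511 genes and tested as log2(scaled FPKM + 1) by limma 3.58.1 in R 4.3.3, with an intensity trend, 4 group means and 8 residual degrees of freedom, over all 14322 genes averaging 1 or more. P-values are two-sided and adjusted by Benjamini-Hochberg over all 14322. The fit was also run on simulated data with known changes in the exon 6-7 knockouts. It called 32.8% of genes changed by 0.5 on the log2 scale and 85.1% of those changed by 1, with 13 false calls. The simulated data had no difference between lines and independent normal noise, so no mouse stood apart over many genes. More genes were changed in the simulation than were called in the data, so these shares do not give the power for the collagen genes. Chain ratios were tested by exact permutation within lines. Library pairs shared at most 0.00546% equal values. Low values compared between libraries showed no clear steps of whole reads, so no depth can be given.

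Described with the value in every mouse are the 3 highest members of each class if at least 1 FPKM, in each knockout comparison the 2 with the smallest p in each direction, and the 8 called members with the largest wild-type difference. Of other genes, the text names the 6 called pathway genes with the smallest p, high-level genes of the pathway lists, Ttr, Dcn, Cldn5 and Pdgfrb. Named after the values were seen were Slc5a5, Abcc9 and the pathway genes beyond those 6 that are followed with trends removed. Alternatives were pseudocounts of 0.1 and 5, no floor and a floor of 5, unscaled, quantile and TPM scaling, each line alone, robust and weighted fits, library set as a term, length and GC trends removed, and each mouse left out. Those without the 4 set A libraries or the 110 small RNA genes were chosen after seeing the data, as were the members singled out for not overlapping.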

Additional observations from a re-analysis of the deposited data

How the results depend on the processing

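The count of called collagen genes was 0 in the 4 knockout comparisons under every alternative run, including each mouse left out (0 to 0). Between the wild types it was 10, and 9 to 11 with each mouse left out. It was 5 with a floor of 5 FPKM, where fewer genes are tested, and 16 with length and GC trends removed. That last alternative reversed Col11a1 (-0.58) and Col4a5 (-0.35) and ended the calls of Col4a1 and Col4a2. Col11a1 also lost its call with quantile normalization (0.35), without WT809 (0.34) and without the set A libraries (0.51), and Col4a5 with FPKM as deposited (0.31), without WT778 (0.32) and without WT993 (0.36). In the exon 7 knockout comparison Col16a1 ranged from -0.48 to 0.02 with each mouse left out, the last without WT993, and the cause was not tested. The scaling of libraries moved the wild-type comparison as a whole: FPKM as deposited shifted the median of all genes by -0.13 and TPM by 0.13. The wild types are littermates of the knockouts, but the sample labels used here list no litter for a mouse, so no paired analysis was made. Low levels limit 17 of the 42 genes, which fell under the floor, and depth is unknown.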

Other observations

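Among the untested members, Col10a1, the collagen of growth plate cartilage, was listed at 0 in WT809, WT628 and KO969 and at most at 0.0716 scaled FPKM elsewhere. Col6a6 had 0.0173 to 0.133 and Col28a1 0.0916 to 0.263 over the 12 mice. Col22a1, a FACIT of tissue junctions, had 0.458, 0.616 and 0.421 in the exon 6-7 wild types and 0.342, 0.384 and 0.388 in the knockouts, and was the member under the floor whose exon 6-7 knockouts all lay below the wild types. Col4a6, the X-linked partner of Col4a5, had 0.163, 0.19 and 0.202 in those wild types and 0.403, 0.261 and 0.203 in the knockouts. These groups did not overlap, but WT865 at 0.202 and KO864 at 0.203 were nearly equal. Col24a1, a fibrillar chain, varied within groups rather than between them, from 0.244 to 1.43.

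The ratio of Col11a1 to Col11a2, looked at after the values were seen, was -2.06, -2.11 and -1.60 on the log2 scale in the exon 6-7 wild types and -0.97, -0.87 and -0.62 in the exon 7 wild types, without overlap (exact permutation p = 0.1, the smallest 3 mice against 3 allow). The ratio of Col8a1 to Col8a2 was -2.25 in WT865 and between -0.22 and 0.86 in the other 11 mice.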
